A study of Mus musculus with 6 samples.

Results

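Transcripts of the Eph receptors, their ephrin ligands, the Slits and their Robo receptors, and the netrins and their receptors were measured in single cells of the mouse embryonic heart region. The genes were chosen by symbol alone (Epha or Ephb, Efna or Efnb with a number, Slit1 to Slit3, Robo1 to Robo4, the netrins, Unc5a to Unc5d and Dcc), and 40 of the 32285 genes in the table matched. They comprise 5 ephrin-A, 3 ephrin-B, 9 EphA, 5 EphB, 3 Slit, 4 Robo and 6 netrin genes, and 5 netrin receptors. The embryos were wild type C57BL/6 at stage E10.5, and their cardiogenic region was dissociated with TrypLE and captured with 10x Genomics 3′ chemistry, version 3. The 6 samples comprise 3 from normoglycaemic dams given vehicle and 3 from dams made hyperglycaemic with streptozotocin, which is toxic to the beta cells of the pancreas. The sires all had normal blood glucose. The labels' descriptions speak of a chromatin assay, but titles and library source speak of RNA, and the values were read as RNA counts.

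Eph receptors are receptor tyrosine kinases that bind ephrins on neighbouring cells, and both partners can signal when cells touch. Ephrin-A ligands are held to the membrane by a lipid anchor and mostly bind EphA receptors, whereas ephrin-B ligands span the membrane and mostly bind EphB receptors and EphA4. Slits are secreted proteins that usually repel Robo-bearing cells, and netrins attract cells through DCC or repel them through UNC5 receptors. Outside the nervous system these families take part in artery and vein identity, heart septation, cushion formation and neural crest migration.

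The pooled table held 53362 barcodes in 6 libraries told apart by a number at the end of each barcode. No file used here pairs that number with a sample, so streptozotocin and vehicle were not compared and the table was treated as 1 sample. Libraries are described by number, without a group or a test. Barcodes needed 2500 or more detected genes and no more than 10% mitochondrial counts, which left 35962 cells, 4903 to 7136 per library. Their library medians were 30533 to 35634 unique molecular identifiers (UMIs, each marking 1 captured RNA molecule). Library 1 stood apart in Xist, the RNA of the inactive X chromosome, at 383 UMIs per 1000000 (CPM) against 0.0661 to 0.342 in the others. Of the retained cells, 283 (0.787%) shared a barcode sequence with a cell of another library. Cells were assigned by marker genes, none of them a member of the families described here. In all, 25727 cells passed the gate of exactly 1 class, 8577 passed none, and 1658 (4.61%) passed several and were removed. Of the classes, 13 held at least 100 cells, from 165 neuron-like to 7901 neural crest mesenchyme-like, and 2 smaller ones, myeloid-like (75 cells) and smooth muscle and mural-like (60), are quoted but not ranked. Some gates were narrow: 63.1% of branchiomeric muscle-like cells and 61.1% of paraxial mesoderm-like cells carried only the minimum number of markers.

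Of the 40 genes, 30 reached 10 CPM in their highest class, against 41.6% of the 27651 genes with any UMI, and 10 did not. The CPM of a class is a gene's UMIs summed over its cells, scaled to the class total, and its 95% exact Poisson interval covers counting error only. All 30 were lowest in erythroid-like cells, which held between 0.0216 and 5.39 CPM of each. How many of all genes were lowest there was not counted. Fewer genes reached 10 CPM in erythroid-like cells, at 5095 against 8315 to 8964 in the other ranked classes. Only 5 of the 30 lay at least 2-fold above the next class, the size used here to call a gene class-restricted. These were Dcc, Unc5d, Slit1, Ntng1 and Epha6. Across all 11492 genes at that level 15.2% did so, which is close to the share of these families. The median of the highest level over the next was 1.46 for the 30 genes and 1.14 for all genes at that level. In every library with at least 20 cells of both classes, 19 of the 30 kept their highest class above the next one, against 44.6% of all genes. Of the 30, 14 reached 10 CPM in 10 or more of the 13 classes, and 8 did so in 3 or fewer. The same counts were not made over all genes, so they do not set these families apart. Branchiomeric muscle-like cells were the highest class for 6 of the 30 genes, surface ectoderm-like cells for 4, and neuron-like, paraxial mesoderm-like and splanchnic mesoderm-like cells for 3 each. How many of all genes each class led was not counted. Among the 6, Epha4, Ephb1 and Ephb3 led by ratios of only 1.07, 1.10 and 1.17, in 3, 3 and 4 of 6 libraries.

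**Figure D1:**
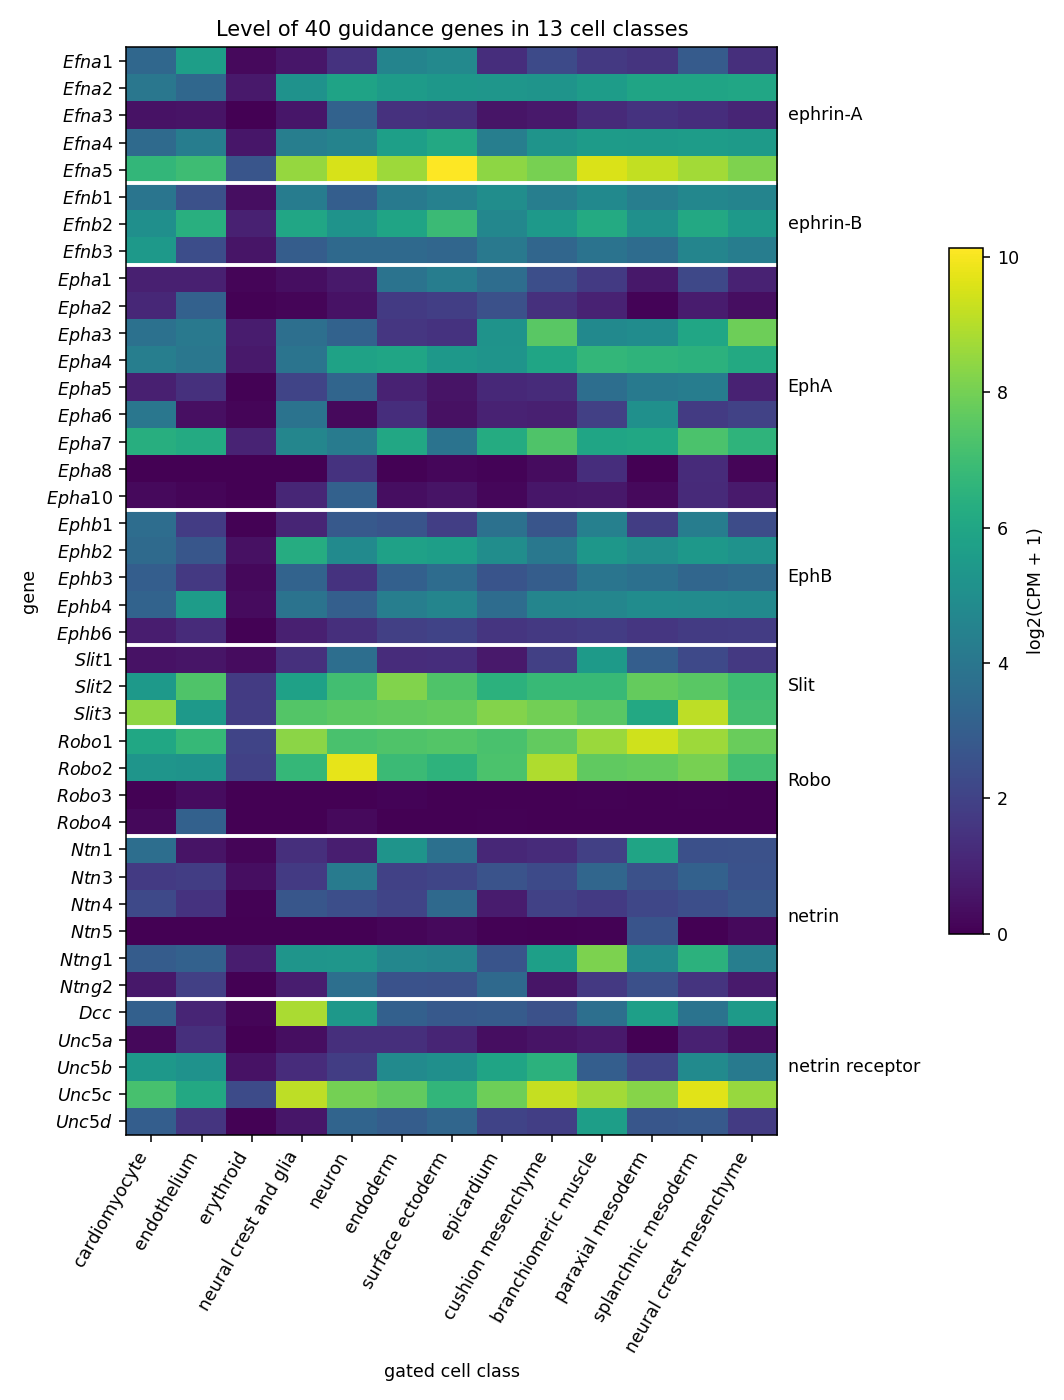
Level of the 40 genes (rows, ordered by role) in 13 gated cell classes (columns), as log2 of CPM plus 1, so that colours compare classes along a row; between rows they also depend on how well each transcript is captured. The erythroid column is the lowest for all 30 genes that reach 10 CPM, and 14 of the rows hold 10 CPM or more in at least 10 columns. Neither count was set beside a share over all genes.

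Among the netrin receptors, Dcc, which mediates attraction to netrin, had the sharpest pattern. Migratory neural crest and glia precursors, gated as crest and glia-like cells, held 459 CPM (interval 445 to 472), with 258, 506, 520, 498 and 426 CPM in libraries 2 to 6. The next class, paraxial mesoderm-like cells, held 51.1 CPM, so the ratio was 8.97 (8.30 to 9.71), and Dcc was higher in the crest and glia-like cells of 5 of 5 libraries compared. The groups did not overlap, and library 2 had the lowest of the 5 values. A Dcc UMI was seen in 71.8% of crest and glia-like cells thinned to 5000 UMIs each (interval 65.9 to 77.2) and in 0.143% of erythroid-like cells thinned the same way. Before thinning the shares were 90.3% and 0.429%, at median depths of 35208 and 63997 UMIs. These erythroid-like shares are only a rough guide to the background that free RNA leaves in droplets, since no empty droplets were used. Erythroid-like cells were also the deepest ranked class, so thinning may remove more of that background from them than from other cells. When cells that passed several gates were kept in each of their classes, the ratio was 5.76.

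Branchiomeric muscle-like cells, the precursors of pharyngeal and facial muscle, were the highest class of 3 further restricted genes. Ntng1 encodes netrin-G1, a membrane-anchored relative of the netrins, and stood at 281 CPM there and at 90.7 CPM in splanchnic mesoderm-like cells, a ratio of 3.10 (3.00 to 3.20) with 6 of 6 libraries in the same order. Its library values in branchiomeric muscle-like cells were 435, 461, 403, 155, 130.0 and 210.4 CPM in libraries 1 to 6, a 3.54-fold range. The splanchnic mesoderm-like level pools unlike cells. Its anterior field subset, described below, held 194.6 CPM of Ntng1 and its posterior field subset 16.4 CPM. That anterior field level lies within the range of the branchiomeric muscle-like libraries. Cells that passed no gate held 102 CPM. Unc5d, a receptor that mediates repulsion from netrin, stood at 49.8 CPM against 9.0 CPM in surface ectoderm-like cells, a ratio of 5.53 (4.86 to 6.31) and 6 of 6 libraries. Across libraries it ran from 13.4 to 94.3 CPM with a median of 42.7, a wide spread that still left it above the surface ectoderm-like value in each library. With 1 more marker asked of every gate its ratio was 9.83. Slit1, the Slit best known from the nervous system, stood at 44.4 CPM (30.4 to 59.4 by library, median 44.7) against 11.5 CPM in neuron-like cells, a ratio of 3.85 (2.96 to 5.10), with no overlap between the libraries of both classes.

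Epha6 was called restricted to paraxial mesoderm-like cells at 32.6 CPM. Cardiomyocyte-like cells followed at 15.2 CPM, and the ratio was 2.14 (1.94 to 2.37). That call rested on few cells: libraries 1 and 3, with 26 and 31 paraxial mesoderm-like cells, gave 101 and 73.4 CPM, and the other 4 gave 16.5 to 29.5 CPM. The cardiomyocyte-like values ran from 10.3 to 25.2 CPM and overlapped these. Without library 1 the ratio was 1.59 and without library 3 it was 1.77. It was 1.40 with thinned cells, 1.94 with cells of several gates kept and 1.89 without shared barcodes. With 1 more marker per gate it was 0.690. A UMI of this receptor of ephrin-A ligands was found in 17.5% of the paraxial mesoderm-like cells (6.90% after thinning) at a median of 32429 UMIs, and in 0.429% of erythroid-like cells.

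**Figure D2:**
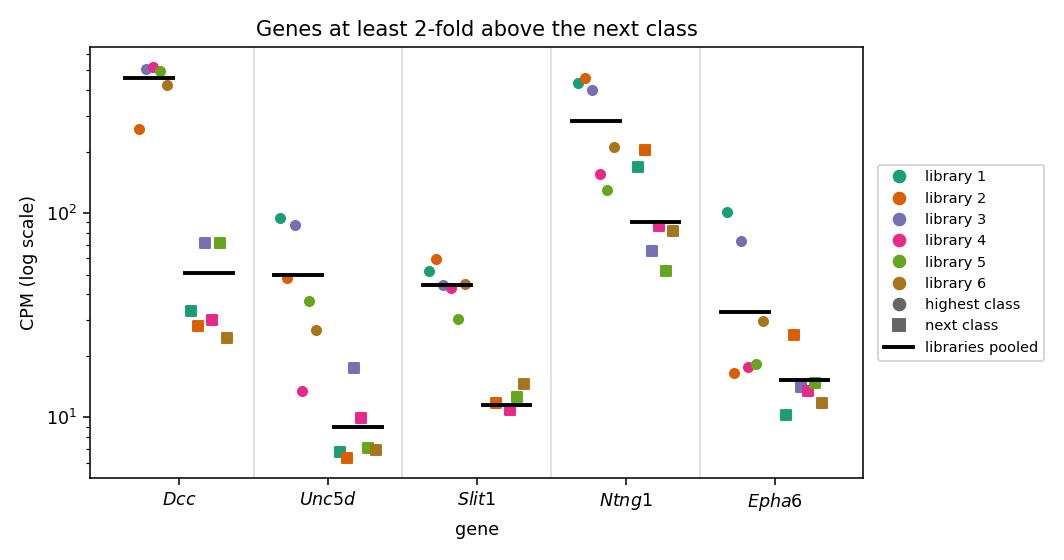
CPM (log scale) of the 5 class-restricted genes in each library (coloured points) and with libraries pooled (black bars), in the highest class (circles) and the next class (squares); libraries with under 20 cells of a class are not drawn. Dcc and Slit1 do not overlap between classes, whereas Epha6 values of 16.5 to 29.5 CPM lie among or near the cardiomyocyte-like ones.

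The ligands of the Eph receptors were mostly broad. Efna5, which encodes ephrin-A5, was highest in surface ectoderm-like cells at 1115 CPM (1037 to 1188 by library, median 1101), above branchiomeric muscle-like cells at 756 CPM (614 to 889) in 6 of 6 libraries. The 2 ranges did not overlap, and the third class, neuron-like cells, stood at 730 CPM. Efna4 led in surface ectoderm-like cells too, with 68.1 CPM in surface ectoderm-like cells (64.2 to 71.1) and 51.4 CPM in endoderm-like cells (46.7 to 54.8). Efna2 differed little between classes: neural crest mesenchyme-like, splanchnic mesoderm-like and paraxial mesoderm-like cells held 62.7, 59.5 and 59.1 CPM, and their library ranges overlapped. Efna1 was the ephrin-A gene whose highest class was the endothelium-like cells, at 50.5 CPM (41.3 to 56.2, median 49.1), ahead of surface ectoderm-like cells at 26.0 CPM (20.5 to 33.1) by a ratio of 1.94 (1.80 to 2.09) in 6 of 6 libraries. Efna3 stayed at 8.15 CPM in neuron-like cells and at 1.80 CPM or less elsewhere.

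Ephrin-B ligands divided among epithelium, vessels and muscle. Efnb2, a marker of arteries, was highest in surface ectoderm-like cells at 120.1 CPM (113 to 129, median 119), followed by endothelium-like cells at 83.7 CPM (72.9 to 91.6, median 81.5). The library ranges did not overlap, and the ratio was 1.43 (1.38 to 1.49). The 60 smooth muscle and mural-like cells held 122 CPM. Efnb3 was highest in cardiomyocyte-like cells at 43.0 CPM (36.5 to 51.4) and was 1.85-fold (1.76 to 1.95) above splanchnic mesoderm-like cells at 23.2 CPM, again without overlap between libraries. Efnb1 stood at 30.0 CPM in epicardium-like cells and at 26.7 CPM in branchiomeric muscle-like cells. These library ranges overlapped, but the epicardium-like value was the higher one within 6 of 6 libraries.

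Of the EphA receptors, Epha3 marked mesenchyme. Neural crest mesenchyme-like cells held 236 CPM (204 to 279, median 231) and endocardial cushion mesenchyme-like cells 185 CPM (150.0 to 257, median 181). These ranges overlapped, and both lay above the 40.5 to 124 CPM of splanchnic mesoderm-like cells, which had 62.1 CPM pooled. Epha7 was likewise at 159.8 CPM in cushion mesenchyme-like cells (121 to 193) and at 150.8 CPM in splanchnic mesoderm-like cells (110.0 to 175), in that order in 5 of 6 libraries and with overlapping ranges. Epha4, which binds ephrins of both kinds, reached 10 CPM in 12 classes, with branchiomeric muscle-like cells at 102 CPM and paraxial mesoderm-like cells at 95.6 CPM. The order of those 2 classes held in only 3 of 6 libraries. Epha1, a receptor of epithelia, was highest in surface ectoderm-like cells at 18.8 CPM, followed by endoderm-like cells at 13.3 CPM and epicardium-like cells at 11.3 CPM. Epha5 was uneven between libraries. In splanchnic mesoderm-like cells it was at 1.95 and 4.62 CPM in libraries 1 and 2 and at 17.0 to 36.1 CPM in libraries 3 to 6, an 18.5-fold range. The make-up of this class differed as well. Libraries 1 and 2 held 6 and 13 cells of the posterior field subset described below, and libraries 3 to 6 held 142 to 241. Epha5 was at 64.7 CPM in that subset and at 2.11 CPM in the anterior field. The part of this make-up in the range was not tested.

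Among EphB receptors, Ephb2 led in crest and glia-like cells at 77.0 CPM (72.1 to 86.2 in 5 libraries, median 74.5), above endoderm-like cells at 54.9 CPM (48.6 to 61.2) with no overlap and a ratio of 1.40 (1.30 to 1.51). Ephb4, the receptor of ephrin-B2 and a marker of veins, was highest in endothelium-like cells at 46.7 CPM (40.8 to 50.8, median 48.7), 1.59-fold (1.43 to 1.76) above paraxial mesoderm-like cells at 29.5 CPM (24.7 to 32.7). Ephb1 and Ephb3 were both highest in branchiomeric muscle-like cells among the ranked classes, at 20.2 and 14.3 CPM, but neither order held in all 6 libraries. The smooth muscle and mural-like cells, too few to be ranked, held 24.3 CPM of Ephb1.

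Slit2 and Slit3 had different leading classes. Slit2 was highest in endoderm-like cells at 293 CPM (255 to 347, median 294), 1.40-fold (1.35 to 1.45) above paraxial mesoderm-like cells at 209 CPM (79.1 to 306), and in 5 of 6 libraries. Slit3 was highest in splanchnic mesoderm-like cells, a gate built from second heart field genes, at 553 CPM (386 to 725, median 533). Cardiomyocyte-like cells held 339 CPM of Slit3 (296 to 380), and the ratio of 1.63 (1.61 to 1.65) kept its direction in 6 of 6 libraries. The ranges of Slit3 in these 2 classes were separated only by the step from 380 to 386 CPM.

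The Slit receptors Robo1 and Robo2 were both present in 12 of 13 classes at 10 CPM or more. Robo1 led in paraxial mesoderm-like cells at 676 CPM (488 to 876, median 814), above splanchnic mesoderm-like cells at 394 CPM (294 to 460) without overlap. Robo2 led in neuron-like cells at 868 CPM (772 to 1131 in 4 libraries), 1.79-fold (1.73 to 1.85) above cushion mesenchyme-like cells at 485 CPM (312 to 608), again without overlap. Robo4, the endothelial member, did not reach 10 CPM but was nearly absent outside its class. Endothelium-like cells held 754 UMIs or 7.95 CPM (5.50 to 10.3 by library, median 9.11), whereas cardiomyocyte-like cells had 23 UMIs (0.151 CPM) and no other class had more than 3. Robo3, which lies tail to tail with Robo4 across a gap of 553 bp on chromosome 9, gave 44 UMIs over all gated classes and 0.264 CPM in endothelium-like cells.

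The secreted netrin Ntn1 was highest in paraxial mesoderm-like cells at 59.0 CPM and next in endoderm-like cells at 36.5 CPM. That order held in only 3 of 6 libraries. Paraxial values were 1.70, 31.2, 5.37, 32, 95.6 and 78.7 CPM in libraries 1 to 6, a 56.2-fold range, while endoderm-like values stayed between 19.8 and 51.6 CPM. Ntn5 showed the same unevenness at a lower level, with 5.13 CPM in paraxial mesoderm-like cells (0.596 to 7.25) and at most 0.198 CPM elsewhere. The membrane-anchored Ntng2 and the secreted Ntn3 had their highest level in neuron-like cells, at 12.1 and 17.5 CPM. Ntn3 was 1.92-fold (1.49 to 2.44) above the next class in 4 of 4 libraries. Ntng2 was 1.23-fold above epicardium-like cells, with an interval from 0.928 to 1.59 and 3 of 4 libraries in that order, so its leading class was not resolved.

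The repulsive receptor Unc5c was highest in splanchnic mesoderm-like cells at 816 CPM (688 to 931, median 832), 1.35-fold (1.33 to 1.38) above cushion mesenchyme-like cells at 603 CPM (555 to 663) with no overlap. Unc5b was highest in cushion mesenchyme-like cells at 90.5 CPM (68.4 to 104, median 88.1), followed by epicardium-like cells at 59.3 CPM (44.2 to 67.4), in the same order in 6 of 6 libraries. Unc5a stayed under 2 CPM in every class. The remaining genes under 10 CPM in every ranked class were Ntn4 (9.89 CPM in surface ectoderm-like cells), Epha2 (7.88 CPM in endothelium-like cells), Epha10 (7.75 CPM in neuron-like cells), Ephb6 (3.13 CPM in surface ectoderm-like cells) and Epha8. The smooth muscle and mural-like cells, too few to be ranked, held 15.2 CPM of Ntn4. Epha8 stood at 1.79 CPM in neuron-like cells, from 9 UMIs and above the next class in 2 of 4 libraries. It was higher in the posterior field subset of splanchnic mesoderm-like cells, at 5.10 CPM (2.74 to 7.69 in 4 libraries, 100 UMIs), against 2 UMIs in the anterior field, a ratio of 74.9 with a counting interval from 20.2 to 627. Epha10 was 6.04-fold (4.08 to 8.78) above the next class in 4 of 4 libraries.

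Endothelium-like cells were split by genes outside these families, first into 1397 endocardial cells (at least 3 of Nfatc1, Npr3, Gata4 and Hapln1) and 801 vascular cells, which were all the others and could carry up to 2 of these markers. Only 360 of the 801 carried at most 1. The vascular cells were then split into 169 arterial and 317 venous ones. Arterial cells had at least 3 of Gja4, Gja5, Dll4, Hey1, Sox17 and Cxcr4, and venous cells at least 2 of Nr2f2, Aplnr, Flt4 and Lyve1, each with fewer than 2 of the opposite list. The guidance receptors Nrp1 and Nrp2, which took no part in the split, stood at 512 and 16 CPM in the arterial and at 159 and 231 CPM in the venous cells, the known order of artery and vein. Among other endothelial genes outside the split, Flt1 stood at 584 CPM in arterial and 370 CPM in venous cells. Emcn stood at 999 and 940 CPM and so hardly separated the subsets.

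Arterial cells carried more Efnb2, Efna1, Unc5b, Slit2 and Epha4 than venous cells. Of 14 genes at 10 CPM or more in either subset these 5 were at least 2-fold higher in the arterial cells, against 6.46% of all genes, and none was 2-fold higher in the venous cells, against 2.81%. Efnb2 was at 212, 249.9, 216 and 235 CPM in the arterial cells of libraries 1, 2, 5 and 6, and at 40.7 to 50 CPM in the venous cells of all 6 libraries. The ratio was 4.86 (4.42 to 5.34), with no overlap. Unc5b was at 78.6 to 133 CPM against 5.08 to 18.1 CPM, a ratio of 8.78 (7.40 to 10.46). Efna1 was at 187 to 283 CPM against 30.3 to 51.6 CPM, a ratio of 5.49 (4.98 to 6.05). Slit2 was at 121 to 139 CPM against 17.8 to 41.5 CPM, a ratio of 4.76 (4.21 to 5.38). Epha4 was at 11.4 to 17.1 CPM against 2.01 to 10.2 CPM, a ratio of 2.99 (2.06 to 4.33) that rests on 64 and 59 UMIs and was 4.50 after thinning and 5.30 with at most 1 endocardial marker. With 1 more marker per gate the Slit2 ratio was 7.52. All 5 were higher in the arterial cells of 4 of 4 libraries.

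Ephb4 differed less. Venous cells held 54.3 CPM (37.2 to 66.3) and arterial cells 40.7 CPM (34.2 to 44.9), a ratio of 1.33 (1.15 to 1.55) in the venous direction with overlapping ranges and 3 of 4 libraries in that order. Robo4 stood at 20.7 CPM in arterial and 19.8 CPM in venous cells, a ratio of 1.05 with an interval from 0.836 to 1.31 that leaves room for a difference in either direction. An Efnb2 UMI was found in 60.4% of thinned arterial cells and 16.7% of thinned venous cells, against 0.357% of erythroid-like cells. Before thinning the shares were 97.0%, 73.2% and 3.79%, at median depths of 29730, 42529 and 63997 UMIs. Markers of smooth muscle moved with the arterial cells: the 7 genes of that list summed to 267 CPM (219.8 to 383 by library) against 24.9 CPM (14.1 to 46.4) in venous cells. Of these markers 6 of 7 were higher in the arterial cells, with Cnn1 and Myh11 under 1 CPM in both. The splanchnic mesoderm list summed to 147 against 35.2 CPM (4 of 8 higher) and the neuron list to 203 against 52.6 CPM (4 of 7 higher, with Elavl3, Stmn3, Dcx and Nhlh1 under 1 CPM in both). Cardiomyocyte markers summed to 104 CPM (61.5 to 161 by library) against 36.4 CPM (23.6 to 48.2), with 6 of 8 higher in the arterial cells, and neural crest mesenchyme markers to 88.3 against 45.7 CPM (8 of 10 higher). The endoderm list, which holds the arterial gate gene Sox17, summed to 345 against 90.2 CPM (4 of 8 higher), with Foxa2, Foxa1, Shh, Pax9 and Nkx2-1 under 1 CPM in both. The part of these markers in the arterial levels was not tested. When vascular cells were limited to at most 1 endocardial marker, 64 arterial and 189 venous cells remained, and 10 genes in place of 5 passed 2-fold.

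**Figure D3:**
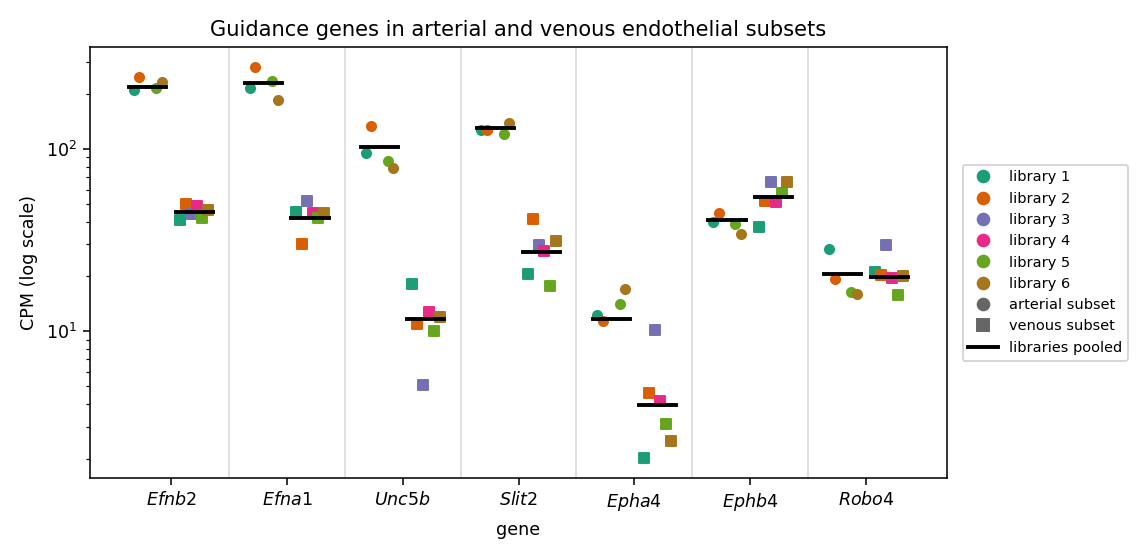
CPM (log scale) in arterial (circles) and venous (squares) endothelial subsets, by library (colours) and pooled (black bars); arterial values are drawn for the 4 libraries with at least 20 such cells. Efnb2, Efna1, Unc5b, Slit2 and Epha4 do not overlap between the subsets, whereas Ephb4 and Robo4 do.

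The promoters of these vessel genes are shown because the arterial members moved together, with Ephb4 and Robo4 beside them as vessel genes that did not. Each is the 250 bases before the RefSeq start in build GRCm38.p6, read 5′ to 3′ on the gene's strand, at chr8:8661243-8661492 (minus strand), chr10:60831582-60831831 (minus), chr5:47982905-47983154 (plus), chr3:89280952-89281201 (minus), chr1:77515089-77515338 (minus), chr5:137349859-137350108 (plus) and chr9:37401722-37401971 (plus). Capitals mark GGAA on either strand (GGAA or TTCC), the core letters of ETS factor sites.
Efnb2: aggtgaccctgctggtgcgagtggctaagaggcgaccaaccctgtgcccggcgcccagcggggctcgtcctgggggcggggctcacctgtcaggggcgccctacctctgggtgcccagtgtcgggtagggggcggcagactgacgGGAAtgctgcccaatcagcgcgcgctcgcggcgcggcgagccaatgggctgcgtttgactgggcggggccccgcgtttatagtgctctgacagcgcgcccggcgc
Unc5b: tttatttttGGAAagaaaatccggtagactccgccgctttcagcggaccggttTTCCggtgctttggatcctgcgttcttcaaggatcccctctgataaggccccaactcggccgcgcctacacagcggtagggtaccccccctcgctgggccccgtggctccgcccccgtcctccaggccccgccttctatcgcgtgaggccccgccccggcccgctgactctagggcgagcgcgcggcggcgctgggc
Slit2: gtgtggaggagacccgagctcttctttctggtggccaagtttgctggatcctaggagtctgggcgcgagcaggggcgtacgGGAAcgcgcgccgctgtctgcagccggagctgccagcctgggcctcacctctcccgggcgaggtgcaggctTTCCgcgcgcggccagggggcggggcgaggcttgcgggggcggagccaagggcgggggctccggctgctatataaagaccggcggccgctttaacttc
Efna1: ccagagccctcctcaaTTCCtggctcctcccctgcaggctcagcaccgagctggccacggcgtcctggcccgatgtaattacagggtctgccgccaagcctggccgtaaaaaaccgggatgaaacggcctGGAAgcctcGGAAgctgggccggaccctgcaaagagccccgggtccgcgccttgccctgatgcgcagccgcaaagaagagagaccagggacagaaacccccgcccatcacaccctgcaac
Epha4: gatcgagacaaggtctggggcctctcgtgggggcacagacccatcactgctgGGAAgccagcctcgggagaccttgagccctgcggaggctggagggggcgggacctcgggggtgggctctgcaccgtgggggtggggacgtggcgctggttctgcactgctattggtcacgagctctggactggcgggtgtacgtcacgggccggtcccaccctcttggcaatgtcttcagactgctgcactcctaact
Ephb4: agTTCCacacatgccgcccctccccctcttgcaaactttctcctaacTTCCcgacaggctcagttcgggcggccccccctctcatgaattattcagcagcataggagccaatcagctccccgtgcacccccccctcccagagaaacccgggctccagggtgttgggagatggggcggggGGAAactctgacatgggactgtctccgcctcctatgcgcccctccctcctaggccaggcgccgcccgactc
Robo4: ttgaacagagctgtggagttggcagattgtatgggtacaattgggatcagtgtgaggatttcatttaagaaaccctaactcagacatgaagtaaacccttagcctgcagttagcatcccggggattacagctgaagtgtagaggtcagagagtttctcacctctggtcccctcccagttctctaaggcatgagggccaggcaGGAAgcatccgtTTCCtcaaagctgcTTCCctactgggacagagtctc
GGAA on either strand occurred in 93.4% of 32851 mouse promoters of this length and in 31 of the 35 members with a RefSeq entry. TGGGAA on either strand, which overlaps GGAA and is the core of RBPJ sites, occurred in 21.6% of all promoters and in 5 of the 35 members. Of the 7 promoters printed, Epha4 held it and the other 6 did not. The Robo4 promoter had a G and C content of 49.6% and 2 CpG dinucleotides, at 0.131 of the number its base composition gives. Unc5b, Efnb2 and Slit2 had 27, 27 and 25 CpG at 0.987, 0.844 and 0.848 of that number. Over the 35 members the median was 0.683, against 0.374 over all promoters.

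Between endocardial and vascular cells, Epha7 and Slit2 were higher in the endocardium and Robo4 and Efna1 in the vessels. These were 4 of 16 genes at 10 CPM or more, 2 in each direction, against 3.2% and 2.36% of all genes. Epha7 stood at 68.8 to 118 CPM in endocardial and at 16.6 to 44.9 CPM in vascular cells, a ratio of 3.11 (2.90 to 3.33). Slit2 stood at 186 to 225 CPM against 46.6 to 95 CPM, a ratio of 3.00 (2.87 to 3.14). Robo4 was at 17.4 CPM in vascular cells (16.4 to 20.5) and at 3.16 CPM in endocardial cells (1.85 to 5.18), a ratio of 5.52 (4.68 to 6.52). None of these ranges overlapped. Efna1 was 2.09-fold (1.97 to 2.21) higher in vascular cells, which fell to 1.93 without library 2. With at most 1 endocardial marker allowed in vascular cells the Epha7, Slit2 and Efna1 ratios were 10.53, 5.03 and 1.98, and with 1 more marker per gate the Robo4 ratio was 8.42. Efnb2 and Ephb4, the artery and vein markers, were at 82.8 and 46.7 CPM in endocardial cells and at 85.5 and 46.8 CPM in vascular cells. Cushion mesenchyme markers summed to 1601 CPM in endocardial and 741 CPM in vascular cells (5 of 7 higher), and smooth muscle markers to 62.0 and 150.2 CPM (6 of 7 higher in vascular cells). Cardiomyocyte markers summed to 269 CPM (209 to 359.7 by library) against 117 CPM (74.4 to 185), with 4 of the 8 higher in each subset. Splanchnic mesoderm markers summed to 158 CPM (148 to 171) in endocardial and 90.1 CPM (61.8 to 133) in vascular cells, also with 4 of the 8 higher in each. Markers of endoderm (37.4 and 136 CPM, 5 of 8 higher), paraxial mesoderm (16.8 and 68.4 CPM, 5 of 6) and branchiomeric muscle (12.1 and 41.2 CPM, 5 of 7) summed higher in the vascular cells. Of these, Foxa2, Foxa1, Shh, Pax9, Nkx2-1 and Cldn6, Uncx, Pax1, Pax3 and Meox2, and Myf5, Msc, Lhx2 and Myod1 were under 1 CPM in both subsets. The endoderm list holds Sox17, an arterial marker here. The markers' part in these differences was not tested.

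The comparison of endocardial with vascular cells and the cardiomyocyte-like, heart field and endoderm splits that follow were added after values had been seen. Cardiomyocyte-like cells were split into 948 ventricular cells (at least 10 UMIs of Myl2, the ventricular myosin light chain, and none of Nr2f1 or Nr2f2) and 1130 atrial cells (at least 2 UMIs of Nr2f1 or Nr2f2 and fewer than 2 of Myl2). Guidance genes were on the whole higher in the atrial cells. Of 21 genes at 10 CPM or more, 13 were at least 2-fold higher in atrial cells, against 7.3% of all genes, and none in ventricular cells, against 2.08%. All 13 kept that order in 6 of 6 libraries, which are the same libraries that were pooled to pick them.

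Ephb1 was at 28.5 CPM in atrial (16.7 to 48.4, median 29.6) and 1.32 CPM in ventricular cells (0.618 to 2.24), a ratio of 21.6 (16.9 to 27.9). Unc5d was at 17.3 CPM (13.4 to 19.1) against 1.11 CPM (0.480 to 1.98), a ratio of 15.6 (11.9 to 20.8) that was 7.93 after thinning. Unc5c was at 298 CPM (239.6 to 382) against 30.8 CPM (21.0 to 42.6), a ratio of 9.67 (9.17 to 10.2). The ranges of these 3 receptors were far apart. Epha3 followed with a ratio of 6.69 (5.72 to 7.85), or 4.39 after thinning.

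Ligands and receptors of the Slit family were higher in the same direction. Slit2 was 4.86-fold (4.49 to 5.26), Slit3 4.24-fold (4.13 to 4.35), Robo2 4.25-fold (3.91 to 4.62) and Robo1 2.69-fold (2.54 to 2.85) higher in atrial cells. For Slit3 the libraries ran from 507 to 959 CPM in atrial and from 107 to 173 CPM in ventricular cells. Ephb2, Epha4, Efna4, Ephb4 and Efna2 were 2.04-fold to 4.21-fold higher, and Efna2, the smallest of them, was at 1.88 without library 6, 1.97 without library 5 and 1.74 with 1 more marker per gate. The opposite order, under 2-fold, was found for Efnb3, at 57.3 CPM in ventricular (51.6 to 63.5) and 32.1 CPM in atrial cells (26.6 to 38.1), for Ntn1, at 13.9 and 7.18 CPM, and for Epha6, at 15.1 and 9.91 CPM.

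Atrial cells were shallower, with a median of 33948.5 UMIs against 52377. Splanchnic mesoderm markers moved with the atrial cells, at 722 CPM in sum (595 to 992 by library) against 266 CPM (244 to 291), and 7 of the 8 were higher there. Neural crest mesenchyme markers summed to 324 CPM against 142 CPM, and 10 of 10 were higher. Branchiomeric muscle markers summed to 84.0 CPM (59.9 to 117) against 19.8 CPM (17.1 to 22.7), with 7 of 7 higher and Myf5, Msc, Lhx2 and Myod1 under 1 CPM in both subsets. Cushion mesenchyme markers summed to 325 against 224 CPM (7 of 7 higher). The splanchnic list includes Tbx5 and Isl1, which atrial muscle also expresses, and Foxf2 was under 1 CPM in both subsets. The part of these markers in the atrial levels was not tested.

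**Figure D4:**
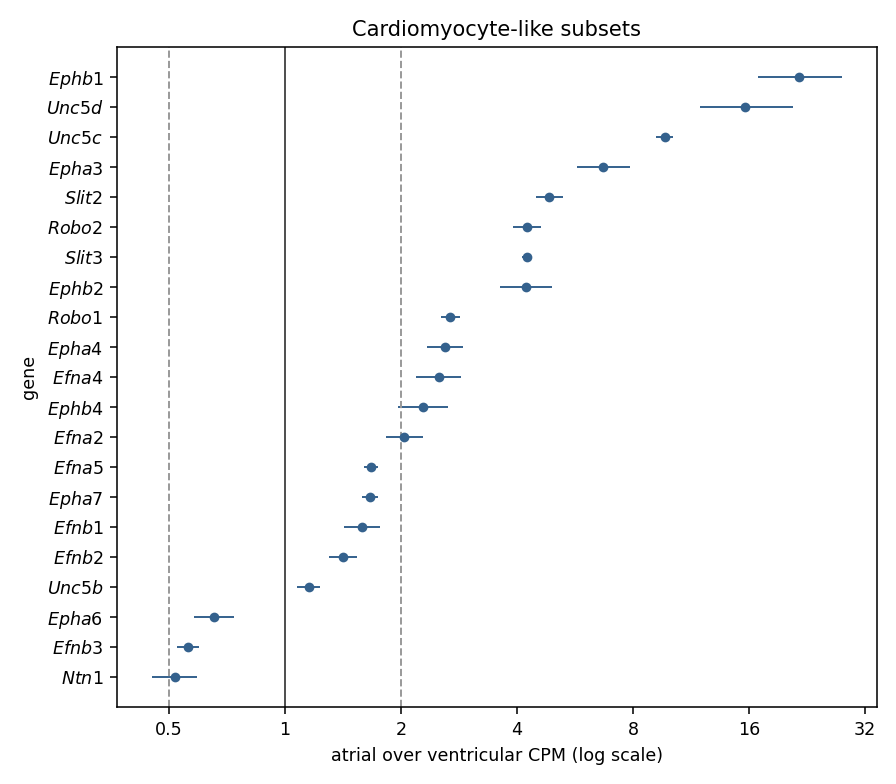
Ratio of atrial to ventricular CPM (log scale) for the 21 genes at 10 CPM or more in either subset of cardiomyocyte-like cells, with 95% counting intervals; dashed lines mark 2-fold in each direction. Of the 21 points 13 lie at or beyond 2-fold on the atrial side and none on the ventricular side.

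Splanchnic mesoderm-like cells were split into 714 posterior field cells (Tbx5 or Wnt2 without Isl1) and 975 anterior field cells (Isl1 without Tbx5 or Wnt2). The field names rest on these genes alone, and any cell of this class that met a rule fell into that subset, whatever its origin. Libraries 1 and 2 held only 6 and 13 posterior field cells, so 4 libraries were compared. Of 21 genes, 3 were at least 2-fold higher in the posterior and 3 in the anterior field, against 3.14% and 3.31% of all genes. Epha5 stood at 103, 62.8, 50.6 and 59.3 CPM in the posterior field of libraries 3 to 6 and at 1.37 to 3.68 CPM in the anterior field of all 6, a ratio of 30.7 (23.8 to 40.3). That ratio was 71.3 after thinning and 18.0 with 1 more marker per gate. Slit3 was 2.39-fold (2.33 to 2.45) higher in the posterior field, at 636 to 948 CPM against 261 to 374 CPM. Efnb1 was 2.11-fold (1.88 to 2.37) higher there and 1.53-fold after thinning.

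In the anterior field, which feeds the outflow tract, Ntng1 was at 108 to 278 CPM against 13.9 to 23.5 CPM, a ratio of 11.9 (10.6 to 13.4). Unc5b was 5.03-fold (4.28 to 5.95) and Efna1 4.33-fold (3.18 to 5.99) higher there, and all 3 kept this order in 4 of 4 libraries. Markers of smooth muscle summed to 525 CPM in anterior and 105.3 CPM in posterior field cells (6 of 7 higher). Those of neural crest mesenchyme summed to 476 and 245 CPM (9 of 10 higher) and those of cushion mesenchyme to 273 and 86.5 CPM (7 of 7 higher). Epicardium markers summed higher in the posterior field, at 228 against 70.5 CPM (6 of 8 higher). So did branchiomeric muscle markers, at 211 CPM (190 to 228 by library) against 111 CPM (51.4 to 139), with 4 of 7 higher. Their part in these differences was not tested.

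Endoderm-like cells were split into 1088 pouch cells (Pax9 without Shh or Foxa2) and 900 foregut cells (Shh or Foxa2 without Pax9). Ligands made up the pouch side and receptors most of the foregut side. Of 22 genes, 3 were at least 2-fold higher in the pouch cells and 7 in the foregut cells, against 3.43% and 4.15% of all genes. Each kept its direction in 6 of 6 libraries, the same ones that were pooled to pick these genes. The 3 pouch genes were all ligands. Slit3 was at 227 to 266 CPM in pouch and 42.5 to 108 CPM in foregut cells, a ratio of 4.45 (4.21 to 4.70). Slit2 was at 344 to 517 CPM against 115 to 149 CPM, a ratio of 3.19 (3.07 to 3.31). Efna5 was at 451 to 620 CPM against 201 to 246 CPM, a ratio of 2.40 (2.33 to 2.47), which was 1.98 with 1 more marker per gate.

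The 7 foregut genes were the ligand Ntn1 and 6 receptors. Ntn1 stood at 63.2 CPM (26.0 to 99.1) against 15.7 CPM (9.13 to 22.5), a ratio of 4.02 (3.67 to 4.42), which was 2.01 with 1 more marker per gate. Its receptors Unc5c and Unc5d were 3.37-fold (3.21 to 3.53) and 3.00-fold (2.44 to 3.71) higher in the foregut cells, and Unc5c was 1.91-fold higher with 1 more marker. The Slit receptor Robo2 was 2.81-fold (2.66 to 2.97) higher. Ephb1, Epha7 and Epha4 were 4.97-fold, 2.49-fold and 2.14-fold higher, the last at 1.92 without library 6 and 1.95 with cells of several gates kept. The foregut Unc5c level varied from 113 CPM in library 5 to 475 CPM in library 2. In pouch cells 9 of 10 neural crest mesenchyme markers were higher, at 190 CPM in sum (149.9 to 221 by library) against 33.9 CPM (19.3 to 71.1). Of their defining genes Dlx1, Dlx2, Alx1 and Dlx6 were under 1 CPM in both subsets. Paraxial mesoderm markers, which include the pouch gene Pax1, summed to 175 CPM against 9.2 CPM, and branchiomeric muscle markers to 103 against 19.3 CPM. Of the branchiomeric markers, 3 were higher in each subset, and Myf5, Msc, Lhx2 and Myod1 were under 1 CPM in both. Tbx1, which is on that list, alone stood at 100.1 CPM in pouch and 14.3 CPM in foregut cells. On the foregut side, cushion mesenchyme markers summed to 107.6 against 53.7 CPM (5 of 7 higher), epicardium markers to 101 against 47.1 CPM (4 of 8 higher) and hepatocyte markers to 25.5 against 3.4 CPM (5 of 6 higher). The part of these markers was not tested.

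Neural crest mesenchyme-like cells were split by the Hox genes that mark pharyngeal arch position into 520 Hox-negative cells, 2991 second-arch-like cells (Hoxa2 or Hoxb2 without a Hox3 gene) and 3109 posterior-arch-like cells (Hoxa3, Hoxb3 or Hoxd3). The Hox-negative cells had a lower median of 31686.5 UMIs, against 40613 and 38400. Of 20 genes at 10 CPM or more, 7 differed at least 2-fold between the highest and the lowest subset, against 5.78% of all genes. All 7 kept that order in 6 of 6 libraries, the same ones that were pooled to pick these genes.

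Of these 7, Dcc alone was highest in the second-arch-like cells, at 76.1 CPM against 21.7 CPM in posterior-arch-like and 10.55 CPM in Hox-negative cells. The ratio of highest to lowest was 7.21 (6.20 to 8.44). Its second-arch-like values were 33.0, 22.4, 17.3, 146, 96.4 and 162 CPM in libraries 1 to 6, a wide range whose lower end overlapped the posterior-arch-like range of 11.4 to 31.7 CPM.

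The other 6 genes were highest in posterior-arch-like cells, and for 5 of them the second-arch-like cells were the lowest. Robo2 stood at 216 CPM there (199 to 247) against 53.7 CPM in second-arch-like cells (48.7 to 66.5), a ratio of 4.03 (3.93 to 4.14), with Hox-negative cells between at 142 CPM. Robo1 was 2.11-fold (2.07 to 2.15) higher, at 277 to 349 CPM against 139 to 164 CPM, and 1.67-fold with 1 more marker per gate and 1 more Hox UMI per cell. Slit3 was 2.46-fold (2.40 to 2.52) higher, at 189 to 217 CPM against 62.3 to 108 CPM. Unc5b was 2.75-fold higher than in second-arch-like cells. Ntng1 was 2.33-fold higher, but its level in Hox-negative cells, at 25.1 CPM, was close to the 25.5 CPM of posterior-arch-like cells. Slit2 was lowest in Hox-negative cells, at 83.4 CPM against 175 CPM, a ratio of 2.10 (1.99 to 2.22) that was under 2-fold in 4 alternatives. It was 1.97 without library 4, 1.93 with at least 4000 genes per cell, 1.96 with 1 more marker and 1.91 with cells of several gates kept. For all 6 genes the posterior-arch-like libraries lay above the second-arch-like ones without overlap, in the same libraries that were pooled to pick them. How many of all genes separate these 2 subsets in this way was not counted. The 6 genes include both Slits and both Robos that reached 10 CPM in these cells.

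Unc5c was highest in Hox-negative cells at 603 CPM, 1.73-fold (1.69 to 1.76) above posterior-arch-like cells. Efnb2 was highest in second-arch-like cells at 55.0 CPM, 1.83-fold (1.76 to 1.91) above posterior-arch-like cells at 30.0 CPM. Between second-arch-like and posterior-arch-like cells, splanchnic mesoderm markers summed to 40.5 and 124 CPM (7 of 8 higher in the posterior-arch-like cells) and smooth muscle markers to 81.7 and 161 CPM (6 of 7 higher). Branchiomeric muscle markers summed to 6.04 and 43.7 CPM (6 of 7 higher), epicardium markers to 8.38 and 34.0 CPM (8 of 8 higher), and paraxial mesoderm markers to 22.7 and 61.7 CPM (4 of 6 higher). The highest classes of Ntng1, Robo1 and Slit3 are among these. Between second-arch-like and Hox-negative cells, the contrast of the Dcc ratio, paraxial mesoderm markers summed to 22.7 and 6.39 CPM (5 of 6 higher in the second-arch-like cells) and neuron markers to 22.1 and 11.4 CPM (5 of 7 higher). Markers of crest and glia-like cells, the class highest in Dcc, summed to 7.91 and 7.01 CPM (6 of 6 higher, with Foxd3 and Erbb3 under 1 CPM in both). Splanchnic mesoderm markers ran the other way, at 40.5 and 101 CPM (5 of 8 higher in the Hox-negative cells). The part of these markers in the levels of the 7 genes was not tested.

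**Figure D5:**
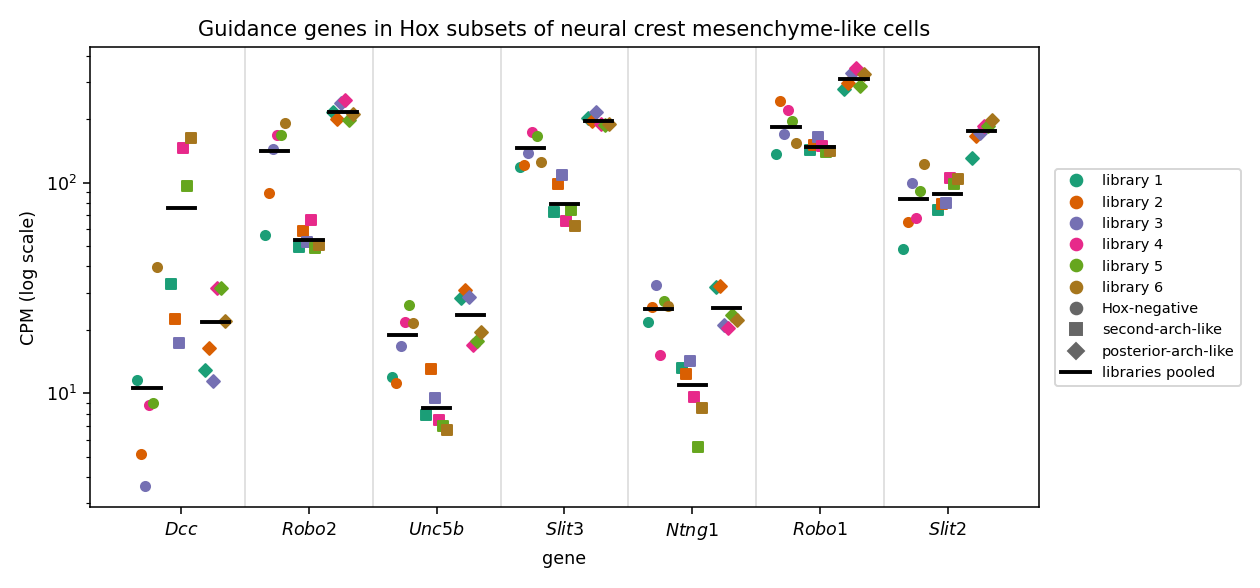
CPM (log scale) of the 7 genes that differ at least 2-fold between Hox subsets of neural crest mesenchyme-like cells, by library (colours) and pooled (black bars), in Hox-negative (circles), second-arch-like (squares) and posterior-arch-like cells (diamonds). Dcc is highest in second-arch-like cells with values from 17.3 to 162 CPM, and Robo2 is lowest there.

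Guidance genes at 10 CPM or more varied more between libraries than most genes at that level did. The genes were not matched for level, so counting error may weigh differently on the 2 sets. Libraries also differed in the make-up of classes, with 6 and 13 posterior field cells in libraries 1 and 2 and 142 to 241 in the others. The part of either in the spread was not tested. Among genes at 10 CPM or more in paraxial mesoderm-like cells, the highest library was at least 2-fold above the lowest for 14 of 22 members, against 21.3% of all genes, and the median ratio was 2.96 against 1.54. That class has only 26 to 189 cells per library. Neuron-like and crest and glia-like cells, also few, had 9 of 17 and 9 of 18 members at 2-fold, against 16.1% and 13.6% of all genes. In branchiomeric muscle-like cells 8 of 23 members varied 2-fold, against 7% of all genes, and in splanchnic mesoderm-like cells 5 of 21, against 5.32%. Among the epithelia, endoderm-like cells had 3 of 19 against 1.76%, surface ectoderm-like cells 4 of 20 against 2.89%, and epicardium-like cells 2 of 19 against 3.35%. The counts were 2 of 19 in cardiomyocyte-like cells, against 0.818%, 2 of 14 in endothelium-like cells, against 2.05%, and 2 of 17 in cushion mesenchyme-like cells, against 5.84%. In neural crest mesenchyme-like cells, the class with most cells, only 1 of 20 members did, against 1.48%. That member was Dcc, at 22.5, 16.5, 13.5, 75.4, 52.0 and 92.0 CPM in libraries 1 to 6. Libraries 4 to 6 had the higher values. How many of all genes order the libraries this way was not counted, and no library is tied to a treatment here. In each of the 12 classes other than erythroid-like cells, the median ratio over members exceeded that over all genes.

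Partners of the pathways were described in the same way. Of 30 other genes of Eph and ephrin, Slit and Robo, and netrin signalling, 29 reached 10 CPM, against 41.6% of genes with any UMI. Class-restricted were 5, against the same 15.2% of all genes at that level. Nell2, a secreted ligand of Robo3, led in crest and glia-like cells at 202 CPM, 4.57-fold above the next class. Dscam, a further netrin receptor, was at 77.9 CPM in neuron-like cells, 13.7-fold above the next class, and the netrin-binding guidance protein Draxin at 86.7 CPM, 10.1-fold above. Rgmb, a ligand of the DCC relative neogenin, was 2.41-fold higher in neuron-like cells, and Flrt2, a ligand of UNC5 receptors, was 2.40-fold higher in epicardium-like cells. Neo1, which encodes neogenin, was at 158 CPM in splanchnic mesoderm-like cells and reached 10 CPM in 12 classes. None of the 11 Eph and ephrin partners that reached 10 CPM was restricted, and 11 genes are too few to set that apart from the 15.2%.

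Genes with the most similar pattern over the 13 classes were found by Pearson correlation of log2(CPM + 1), given as a description without a test, since all classes share the same libraries. For Epha3 they were Gng8, Pdgfrb and Twist1 (r = 0.960, 0.959 and 0.938), of which Twist1 is a marker of the crest mesenchyme gate. For Dcc they were Mamdc2, Dclk1 and Ptprz1 (0.927, 0.922 and 0.913). For Efna1 they were Myzap, Arhgef28 and Arhgap27 (0.920, 0.903 and 0.882). Slit1 was most like Tmem169, Mrln and Lrrn1 (0.943, 0.920 and 0.911), and Epha7 most like Fbn2, Nkd1 and Fstl1 (0.964, 0.942 and 0.931). Each set is the top 3 from a search of the 11492 genes at 10 CPM or more in some class, over only 13 classes. Erythroid-like cells were the lowest class of every member at that level, and the part of this low point in the correlations was not tested.

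Several members are neighbours in the genome, with coordinates from GENCODE M21 on GRCm38. Efna1 (chr3:89271733-89281142), Efna3 (chr3:89313899-89322965) and Efna4 (chr3:89333390-89338028) lie in a row on the minus strand of chromosome 3, separated by 32756 and 10424 bp. Their highest classes were endothelium-like, neuron-like and surface ectoderm-like cells, so adjacent ephrin-A genes had 3 different leading classes. Robo1 (chr16:72308306-73046095, plus strand) and Robo2 (chr16:73891839-74411825, minus strand) lie 845743 bp apart and led in paraxial mesoderm-like and neuron-like cells. Robo4 (chr9:37401897-37415115) and Robo3 (chr9:37415669-37433246) converge, and both were highest in endothelium-like cells, Robo3 with too few UMIs to rank.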

How the data were processed

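Single-cell RNA was measured in 6 samples. The authors deposited 1 table of whole-number UMI counts per gene and barcode, with Cell Ranger 5.0.0 named in the file headers. The submitters' processing notes name build mm10. The sources used here do not give the counting settings.

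Barcodes with at least 2500 genes and at most 10% mitochondrial counts were assigned by 18 marker gates. Classes of at least 100 cells were ranked. Cells of several gates were removed as likely doublets, and no doublet caller was run. The members, lists and markers were chosen with earlier results of these data known, and the number of markers per gate was set after counts were seen. Counts were summed per class, scaled to CPM and given with 95% exact Poisson or Clopper-Pearson intervals. Ratio intervals follow from the binomial one. Cells were thinned to 5000 UMIs for shares, and no cell of a class quoted was shallower. Calls were of size only (2-fold, 10 CPM). Libraries were not treated as replicates, since none is mapped to a sample, so subsets within a library were compared by order only and no test was run over them. Genes called between subsets were picked on the pooled libraries, so their order within those libraries is not separate support. Libraries with under 20 cells of a class were left out of per-library values. Named with library values were members at 50 CPM or more in their highest class or 2-fold above the next, and Efnb2 and Ephb4. Library values of Epha5, Efnb1, Efnb3, Ntn5 and the low members, and the endocardial, cardiac, heart field and endoderm comparisons, were added after values were seen. The call rule was also run on simulated Poisson counts, which hold no spread between cells or libraries, so that run does not bear on such spread. Counts from genes with overlapping neighbours or antisense partners were used as deposited. Python 3.11.15, numpy 2.4.6, scipy 1.17.1, pandas 2.3.3 and matplotlib 3.10.9 were used.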

Additional observations from a re-analysis of the deposited data

How the results depend on the processing

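Counts and ratios were each recomputed under those of 18 alternatives that apply to them, 16 planned and 2 added after seeing the data (ranking 15 classes, and limiting vascular cells to at most 1 endocardial marker). Of 709 alternative values of the 50 ratios of at least 2-fold, 708 kept their direction. The exception was Epha6 over the next class, whose log2 ratio was 1.10 and turned to -0.53 with 1 more marker per gate. These ratios were picked for their size in cells that the alternatives largely share, so a kept direction is weak support. Several fell under 2-fold. After thinning, Epha6 over the next class was 1.40 and Efnb1 between the heart fields 1.53. With 1 more marker per gate, Efna2 between the cardiomyocyte subsets was 1.74 and Unc5c between the endoderm subsets 1.91. The count of class-restricted genes was 5 and became 9 at a minimum of 5 CPM. The count of genes at least 2-fold apart between arterial and venous cells was 5 and became 10 with at most 1 endocardial marker. With each library left out in turn, genes at 10 CPM or more numbered 30 to 31, class-restricted genes 4 to 6 and genes whose highest class lay above the next in every library compared 19 to 21. The counts at 2-fold ran from 5 to 7 for artery and vein, 3 to 5 for endocardium and vessels, 12 to 14 for the cardiomyocyte subsets, 6 to 7 for the heart fields and 8 to 10 for the endoderm, and were 7 for the Hox subsets each time. No paired analysis was possible because, for the labelled samples, replicate numbers are not tied to the barcode numbers. Cell subsets within a library can be paired by that library, but were compared by direction only, as counts of libraries, with no test run. Intervals cover counting error only, and classes of few cells per library (paraxial mesoderm-like, neuron-like, neural crest and glia-like) limit what their library values show.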
